A study of Mus musculus with 12 samples.

Results

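The TRAV7 family members TRAV7-3, TRAV7-4, TRAV7-5 and TRAV7-6 of the mouse T cell receptor (TCR) alpha locus, with their D and N copies, were described in T cells from tumours. Chains were chosen by the deposited V segment name, over 10 listed names: TRAV7-3, TRAV7D-3, TRAV7-4, TRAV7D-4, TRAV7N-4, TRAV7-5, TRAV7D-5, TRAV7N-5, TRAV7-6 and TRAV7N-6. The files held 9 of the 10 names, and TRAV7D-5 was on no chain. The 9 names were on 2366 of 24173 TRA contigs (9.79%), which lay on 2243 of 23219 cell barcodes. Of these barcodes, 2031 were used, among 19115 T cells with 1 TRB chain and 1 or 2 TRA chains. A further 77 had no TRB chain, and 135 had 2 or more TRB chains. The cells used fell into 1042 member clonotypes of 10624 in all (9.81%). A clonotype is the cells of a library that share a TRB chain and a TRA chain.

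The libraries came from subcutaneous tumours of MC38-p53KO cells, a colon cancer line lacking p53 that carries a p53 substitution named R175W in one label and R175H in others. The hosts were C57BL/6J mice, 6 to 8 weeks old. Both groups received a single 40 µg intratumoral dose on day 10, at a tumour size of about 50 to 100 mm³, with the agent named LNP-Ctrl or the agent named LNP-P20-mAb. CD45-positive viable cells were sorted, about 10000 per sample, and 3 TCR libraries per treatment were analysed. When tumours were harvested is not stated in the labels. These also do not say whether the libraries came from separate mice, so the p-values measure the spread between libraries only.

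An alpha chain is made when one of many TRAV segments is joined to one of many TRAJ segments, with bases lost and added at the junction. The junction encodes CDR3, the loop that lies over the peptide held by an MHC molecule, while CDR1 and CDR2 are encoded by the V segment. In C57BL/6 mice part of the TRAV cluster is repeated, so that many families have an original copy and further copies marked D or N. Segments near the J cluster and segments far from it are known to differ in the J segments they reach, because a first joining can be replaced by a later one that uses V and J segments farther out.

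Libraries held 2016 to 3923 T cells, 400 to 3416 clonotypes and 85835 to 145847 UMIs (unique molecular identifiers, each counting 1 captured transcript). No chain was of a gamma-delta T cell or a B cell receptor. In libraries of alpha and beta chains this does not show whether such cells were present. No member cell carried the alpha chain of an invariant NKT cell or a MAIT cell, found on 56 and 17 other cells. LNP-P20-mAb 1 and 2 held largely the same clones. Of the member clonotypes, 15 of 53 in LNP-P20-mAb 1 and 15 of 37 in LNP-P20-mAb 2 had both chains in common, and these held 88.1% and 87.0% of the member cells there. Over all clonotypes it was 119 of 562 and 120 of 400, with 85.5% and 85.0% of the cells. The other 14 pairs of libraries shared no member clonotype. Only 15 cell barcodes were shared by LNP-P20-mAb 1 and 2, and 298 of 22916 barcodes were found in more than 1 library. The tested comparisons that keep LNP-P20-mAb 1 and 2 apart count these clones in both libraries, and main values are also given with the 2 libraries pooled.

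The copies differ in their germline loops, which are printed here because the names of the copies rest in part on these bases. Over the 264 bases from framework 1 to framework 3, apart from single contigs of TRAV7N-4 and TRAV7N-6, all contigs of a name had 1 sequence. TRAV7-3 and TRAV7D-3 differed at 2 bases and TRAV7-4 and TRAV7D-4 at 1, all outside the loops, so a change in a read could move a chain from one name to the other. TRAV7N-4 differed from TRAV7-4 at 3 bases, TRAV7N-6 from TRAV7-6 at 9, and TRAV7N-5 from TRAV7-5 at 13. Members of different number differed at 32 to 47 bases. In the CDR1 and CDR2 coding sequences below, 5′ to 3′, capitals mark the bases that differ from TRAV7-3.
TRAV7-3 and TRAV7D-3 CDR1: gacagtgcttctcagtat
TRAV7-4 and TRAV7D-4 CDR1: gaTCgtAAttTtcagtaC
TRAV7N-4 CDR1: gaTCgtAAttTtcagtat
TRAV7-5 CDR1: gaTGgtActtctAaCAaC
TRAV7N-5 CDR1: gaTCgtTcttctGaCAaC
TRAV7-6 CDR1: gacagtgcttctcagtCC
TRAV7N-6 CDR1: AacagtgcttctcagtCC
TRAV7-3 and TRAV7D-3 CDR2: atcttctccaatggtgaa
TRAV7-4, TRAV7D-4 and TRAV7N-4 CDR2: atcttctcTGatggtgaC
TRAV7-5 and TRAV7N-5 CDR2: atcttctcTGatggtgaa
TRAV7-6 CDR2: atcttctcTaatggCAaC
TRAV7N-6 CDR2: atAttctcTaatggCAaC

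TRAV7-4 and TRAV7D-4 also differed from the rest in the first codons of CDR3, most often tgtgcagctagt. Of their receptors, 97.0% of 199 and 100% of 64 began with cysteine and 2 alanines. TRAV7N-4, 3 bases from TRAV7-4 in the V region, most often began tgtgcagttagt, and 95.5% of its 44 receptors began with cysteine, alanine and valine. The members numbered 3, 5 and 6 most often began tgtgcagtgagc, and 78.4% (TRAV7-3) to 91.8% (TRAV7-6) of their receptors began in that way too. A receptor here is a distinct TRA chain of a library, by V, J and CDR3 bases.

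By clonotypes, TRAV7-4 (199) and TRAV7-5 (195) were the most used members, followed by TRAV7-3 (140) and TRAV7N-6 (125). TRAV7N-5 (99), TRAV7-6 (98), TRAV7D-3 (84), TRAV7D-4 (67) and TRAV7N-4 (46) came next. By cells the order differed, since TRAV7-3 was on 616 cells, TRAV7-4 on 389 and TRAV7N-6 on 371, while TRAV7-5 was on 214. TRAV7D-3 (148), TRAV7-6 (134), TRAV7D-4 (119), TRAV7N-5 (106) and TRAV7N-4 (51) had the fewest cells. At numbers 3, 4 and 5 the original copy had more clonotypes than each D or N copy, and at number 6 TRAV7N-6 had more than TRAV7-6.

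The members together took a similar share of the clonotypes in every library. The share was 9.78%, 10.2% and 10.1% in the LNP-Ctrl libraries 1 to 3 and 9.43%, 9.25% and 8.64% in the LNP-P20-mAb libraries 1 to 3. Every LNP-P20-mAb library was below every LNP-Ctrl library, but the 95% exact Clopper-Pearson intervals of counting error, 8.44% to 11.2% in LNP-Ctrl 1 and 7.20% to 10.3% in LNP-P20-mAb 3, overlapped. The means were 10.0% ± 0.211 and 9.11% ± 0.414 (SD, n = 3 each), a difference of -0.905 percentage points (two-sided exact permutation p = 0.1, the smallest that 3 against 3 libraries can give; Benjamini-Hochberg adjusted p = 0.2 over both shares tested). With LNP-P20-mAb 1 and 2 pooled the difference was -1.24 points (exact permutation p = 0.2, the smallest possible with these libraries pooled). With only the alpha chain of most UMIs per cell it was -0.486 points (exact permutation p = 0.3).

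Of T cells, the members made up 15.4%, 8.72% and 9.77% in LNP-Ctrl and 10.0%, 10.2% and 9.81% in LNP-P20-mAb. LNP-Ctrl 1 stood above the other 5 libraries, which lay within a narrow band. The means were 11.3% ± 3.57 and 10.0% ± 0.202 (SD, n = 3 each; two-sided exact permutation p = 1). The difference of -1.26 points turned to 0.775 points without LNP-Ctrl 1 (exact permutation p = 0.2, the smallest possible without that library).

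**Figure D1:**
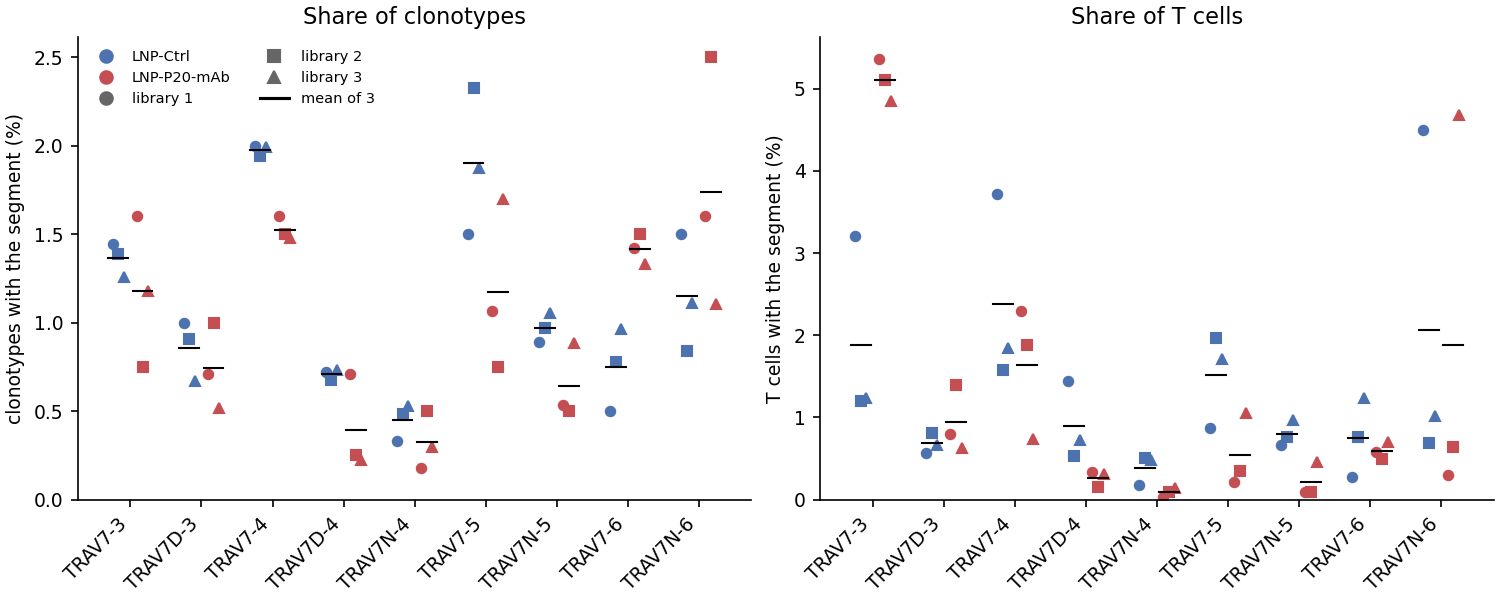
Share of clonotypes (left, %) and of T cells (right, %) with each member, by library, with bars at the mean of 3 libraries. TRAV7-6 clonotype shares lie between 0.5% and 0.966% after LNP-Ctrl and between 1.33% and 1.5% after LNP-P20-mAb, and in the latter libraries TRAV7-3 takes 4.85% to 5.36% of T cells.

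Between treatments, TRAV7-6 and TRAV7N-6 had higher clonotype shares after LNP-P20-mAb and the other 7 members lower ones, but no member passed the test. In edgeR's quasi-likelihood fit over 155 V and J segments, 0 of 9 members had an adjusted p below 0.05, against 2.58% of all segments tested. At an unadjusted p of 0.05, 1 of 9 members and 18.7% of the segments passed. DESeq2 also called 0 members, against 1.29% of segments, and at an unadjusted p of 0.05 it had 1 member and 9.68% of segments. The median log2 change was -0.38 over the 9 members and -0.05 over all segments.

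TRAV7-6, the member nearest the J cluster, was in 0.5%, 0.776% and 0.966% of clonotypes in LNP-Ctrl and in 1.42%, 1.5% and 1.33% in LNP-P20-mAb. The groups did not overlap. Its log2 change was 0.82 ± 0.35 (SE; edgeR, unadjusted p = 0.032, adjusted p = 0.264), and 0.80 with LNP-P20-mAb 1 and 2 pooled (edgeR adjusted p = 0.285; adjusted p from 0.183 to 0.692 over the 18 alternatives). In the count by cells the direction reversed, with a log2 change of -0.34. By library, the largest TRAV7-6 clones had 14 cells in LNP-Ctrl 3, 5 in LNP-Ctrl 2, 12 in LNP-P20-mAb 1 and 5 in LNP-P20-mAb 2. A TRAV7-6 loop with TRAJ37 was on 17 cells of LNP-P20-mAb 1 and 2 together. The part of these clones in the reversal was not tested. TRAV7-4 was in 2.00%, 1.94% and 1.99% of LNP-Ctrl clonotypes and in 1.60%, 1.5% and 1.48% of LNP-P20-mAb clonotypes, again without overlap. Its log2 change of -0.38 ± 0.27 had an edgeR adjusted p of 0.501. TRAV7N-5 was the third member whose groups did not overlap (LNP-Ctrl 0.889% to 1.05%, LNP-P20-mAb 0.5% to 0.886%). Such separation was found for 3 of 9 members and for 23.2% of the 155 segments.

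TRAV7D-4 had the largest negative value, -1.01 ± 0.50 (edgeR adjusted p = 0.273), with 0.722%, 0.679% and 0.732% of clonotypes in LNP-Ctrl and 0.712%, 0.25% and 0.222% in LNP-P20-mAb. The last 2 shares rest on 1 and 3 clonotypes. TRAV7N-4 had a log2 change of -0.61 ± 0.53, TRAV7-5 of -0.53 ± 0.32, TRAV7N-5 of -0.44 ± 0.38 and TRAV7D-3 of -0.35 ± 0.42. TRAV7-3 (-0.16 ± 0.32) and TRAV7N-6 (0.45 ± 0.36) completed the list. With the copies of a number summed, the log2 changes were -0.23 at number 3, -0.52 at 4, -0.49 at 5 and 0.63 at 6, and none passed the edgeR test (lowest adjusted p 0.183). In the edgeR fit over cells, TRAV7-3 had a log2 change of 1.44 ± 0.51 (adjusted p = 0.136). That fit is 1 of the 18 alternatives to the clonotype fit of TRAV7-3, and it alone reversed the direction. Over the 18 the adjusted p ran from 0.136 to 0.995. TRAV7-3 took 3.21%, 1.20% and 1.23% of T cells in LNP-Ctrl and 5.36%, 5.11% and 4.85% in LNP-P20-mAb. One clone held 154 of 175, 89 of 103 and 114 of 138 of the TRAV7-3 cells in the 3 LNP-P20-mAb libraries, and the first 2 of these were the same clone. With LNP-P20-mAb 1 and 2 pooled, TRAV7-3 took 5.27% of their T cells. The fit over cells was not run with them pooled.

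The mean TRAJ number of the members was lower than that of other alpha chains in every library, a difference that did not pass the adjusted threshold. TRAJ segments are numbered downward from the V side of the J cluster, so a lower mean TRAJ number means joining farther into it. The mean number over receptors was 27.8, 28.3 and 27.1 for members in LNP-Ctrl and 26.7, 24.1 and 28.4 in LNP-P20-mAb, against 29.7 to 30.8 for other chains. The members were lower in 6 of 6 libraries, by 3.08 ± 1.55 positions (SD, n = 6). The two-sided exact sign-flip permutation p was 0.031, the smallest that 6 libraries allow, and the adjusted p over 6 measures was 0.094, above 0.05. With LNP-P20-mAb 1 and 2 pooled the difference was -2.63 (exact sign-flip permutation p = 0.0625, the smallest possible with these libraries pooled). With TRAV7-6 left out, a choice made after the data were seen, it was -5.05 (exact sign-flip permutation p = 0.031).

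The members differed from each other, with TRAV7-6 at one end. By RefSeq's gene order (GRCm38.p6), the members run from TRAV7D-3, farthest from the J cluster, through TRAV7D-4, TRAV7N-4, TRAV7N-5, TRAV7N-6, TRAV7-3, TRAV7-4 and TRAV7-5 to TRAV7-6, the nearest. In that order the mean TRAJ numbers over all receptors were 25.7, 27.3, 21.1, 26.8, 23.0, 21.4, 27.8, 31.1 and 40.3. From TRAV7-3 to TRAV7-6, the originals, the mean was higher at each step towards the J cluster. The D and N copies showed no such order. Across the 9 members Spearman's rho with locus order was 0.58, a description over segments that share libraries. TRAV7-6 joined most often to TRAJ48 (12 of 98 receptors), TRAJ49 (9), TRAJ53 (7) and TRAJ37 (7), all on the V side or in the middle of the cluster. TRAV7-3 joined most to TRAJ22 (17 of 139), TRAJ15 (11) and TRAJ9 (11). TRAV7-5 joined most to TRAJ30 (13 of 195), TRAJ32 (12) and TRAJ23 (11).

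**Figure D2:**
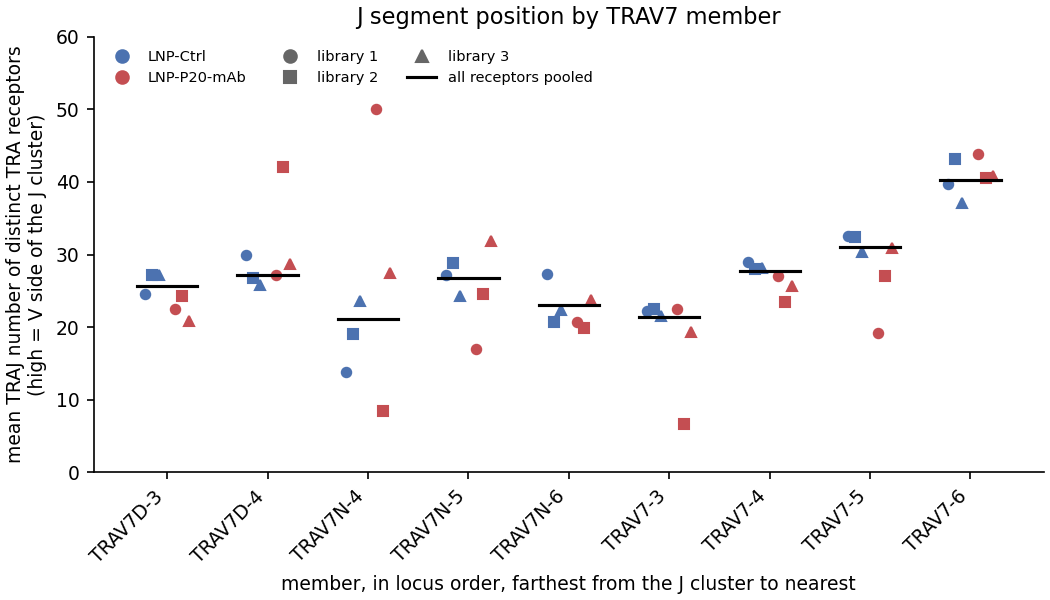
Mean TRAJ number of the receptors of each member (vertical, 60 to 0, high towards the V side), by library, with bars at the mean of all receptors pooled. TRAV7-6 lies between 37.1 and 43.9 in the 6 libraries and TRAV7N-6 between 19.9 and 27.3. Points of LNP-P20-mAb 1 and 2 rest on few receptors for most members.

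The copies of number 6 were the farthest apart. The TRAV7-6 mean over the 6 libraries was 40.9 ± 2.46 and the TRAV7N-6 mean 22.5 ± 2.77 (SD, n = 6), and TRAV7N-6 was lower in 6 of 6 libraries, a difference of -18.4 ± 4.38 positions. The exact sign-flip permutation p was 0.031 (adjusted p = 0.083 over the 4 numbers, a comparison chosen after the data were seen). With LNP-P20-mAb 1 and 2 pooled the difference was -17.9, lower in 5 of 5 (exact sign-flip permutation p = 0.0625, the smallest possible there). At number 5 the N copy was lower by 3.15 ± 2.55, in 5 of 6 libraries (exact sign-flip permutation p = 0.0625). At number 4 the D and N copies together differed from TRAV7-4 by -1.55 ± 4.07 (p = 0.375, same exact test). At number 3 the D copy was higher by 5.29 ± 6.38 in 5 of 6 libraries (p = 0.0625, same exact test). In LNP-P20-mAb 2 only 3 TRAV7-3 clonotypes were found, and without that library the difference was 2.84 ± 2.36, and 2.90 ± 2.26 with LNP-P20-mAb 1 and 2 pooled. All D and N copies together had a mean of 24.5 and the originals of 28.9, a difference of -4.42 ± 0.987. The D and N copies were lower in 6 of 6 libraries (exact sign-flip permutation p = 0.031, adjusted p = 0.094). With LNP-P20-mAb 1 and 2 pooled the difference was -4.69 (exact sign-flip permutation p = 0.0625, again the smallest possible there). Without TRAV7-6 and TRAV7N-6 that difference was -0.156 ± 2.49 (exact sign-flip permutation p = 0.844; p from 0.031 to 0.844 over the 11 alternatives).

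Among single partner segments, edgeR's fit within libraries called 4 of 77, or 5.19%, all of them TRAJ. For TRAJ segments it set member TRA chains against other TRA chains, and for beta segments member against other clonotypes. TRAJ17 was higher among members (1.3% of the 77), and TRAJ58, TRAJ57 and TRAJ49 were lower (3.9%). DESeq2 called 3 of 77, or 3.9%, and at an unadjusted p of 0.05 both tools had 6.49%. Of segments not called, TRAJ28 (0.81 ± 0.49) and TRBV13-2 under that name alone (0.60 ± 0.40) had the next highest log2 differences and TRAJ56 (-1.16 ± 0.47) the lowest. Of 43 TRAJ segments 4 were called, and of 22 TRBV and 12 TRBJ segments none was called by edgeR, with 0 at an unadjusted p of 0.05 in both classes.

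TRAJ17 was on 53 of 1042 member receptors and on 222 of 10817 others. By library it made up 7.47%, 2.83% and 3.75% of member receptors in LNP-Ctrl and 12.2%, 13.9% and 5.93% in LNP-P20-mAb. Other chains were at 1.69%, 2.15% and 2.54% in LNP-Ctrl and at 1.25%, 1.21% and 1.66% in LNP-P20-mAb. Members were higher in 6 of 6 libraries, with means of 7.69% ± 4.51 and 1.75% ± 0.518 (SD, n = 6). The log2 difference was 1.51 ± 0.29 (SE; edgeR adjusted p = 0.000195), and 1.40 with LNP-P20-mAb 1 and 2 pooled (edgeR adjusted p = 0.000489). One member carried much of it: 25 of the 53 were TRAV7N-6, where TRAJ17 was on 20.8% of 120 receptors (95% exact interval 14% to 29.2%). That interval pools the libraries and leaves out the spread between them. By library TRAJ17 was on 5 of 26, 3 of 26 and 3 of 38 TRAV7N-6 receptors in LNP-Ctrl. In LNP-P20-mAb it was on 4 of 6, 5 of 9 and 5 of 15, and LNP-P20-mAb 1 and 2 share clones. The other members together had TRAJ17 on 28 of 922 receptors, or 3.04% (2.03% to 4.36%), and TRAV7-6 had it on 0 of 98. With TRAV7N-6 clonotypes left out, an alternative added after the data were seen, the log2 difference was 0.56 ± 0.31 and was not called (edgeR adjusted p = 0.570; adjusted p from 6.86e-09 to 0.570 over the 17 alternatives).

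TRAJ58 and TRAJ57 are the 2 segments at the V side of the J cluster among those seen here. TRAJ58 was on 0 of 1042 member receptors, which allows a share of up to 0.288%, and on 123 of 10817 others (1.14%), with an edgeR adjusted p of 0.00117. TRAJ57 was on 5 member receptors and on 222 others. By library that was 1 of 174, 2 of 318 and 2 of 347 member receptors in LNP-Ctrl. In LNP-P20-mAb it was none of only 49, 36 and 118. The mean was 0.297% ± 0.326 against 2.12% ± 0.240 (SD, n = 6). The log2 difference was -2.11 ± 0.47 (SE; edgeR adjusted p = 0.00117). Of the 5, 3 were TRAV7-6. TRAJ49 was on 18 member receptors and 410 others, with a mean of 2.45% ± 1.32 against 4.12% ± 0.694 and a log2 difference of -1.13 ± 0.32 (edgeR adjusted p = 0.0153). TRAV7-6 supplied 9 of the 18 and was at 9.18%, above the 3.79% of other chains. TRAJ57 and TRAJ58 passed with TRAV7N-6 left out, while TRAJ49 did not. Its log2 difference was -0.95 there (edgeR adjusted p = 0.0767), -1.04 with chains of 3 or more UMIs only (edgeR adjusted p = 0.0543), -1.15 in DESeq2 (adjusted p = 0.0853) and -0.79 without LNP-Ctrl 3 (edgeR adjusted p = 0.490, the highest over the 17 alternatives, from 0.00443). Without LNP-Ctrl 2, one of the 2 libraries with most receptors, none of the 4 was called: the edgeR adjusted p was 0.0573 for TRAJ17 and TRAJ57, 0.0718 for TRAJ58 and 0.186 for TRAJ49. The log2 differences there were 1.88 for TRAJ17, -2.26 for TRAJ57 and -1.12 for TRAJ49. Without LNP-Ctrl 3, which had 347 member receptors against 318 in LNP-Ctrl 2, 3 segments were called. The source of this contrast was not tested. With LNP-P20-mAb 1 and 2 pooled all 4 were called, TRAJ57 with -2.10 (edgeR adjusted p = 0.00156), TRAJ49 with -1.11 (edgeR adjusted p = 0.0183) and TRAJ58 with an edgeR adjusted p of 0.00123.

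**Figure D3:**
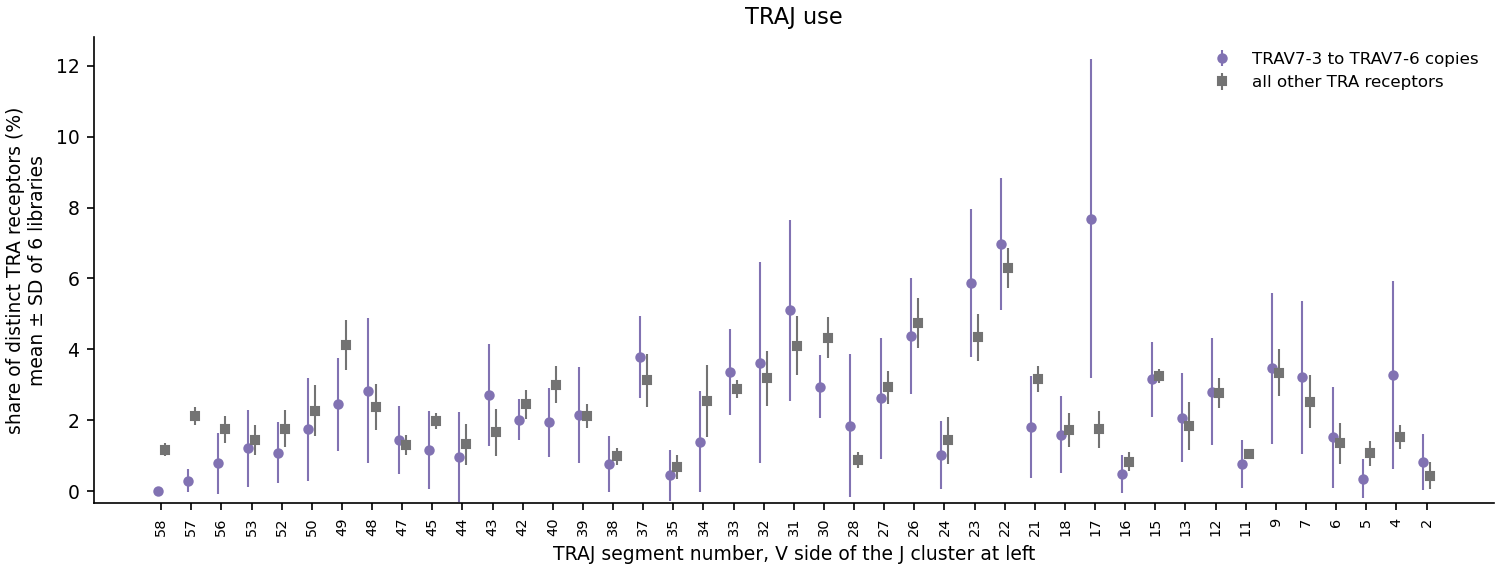
Share of receptors (%) joined to each TRAJ segment, for the members (circles) and all other alpha chains (squares), as mean ± SD of 6 libraries, with the V side of the J cluster at left. TRAJ17 is at 7.69% of member receptors against 1.75% of others, and TRAJ58 and TRAJ57, at the left end, are at 0% and 0.297% against 1.17% and 2.12%.

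The TRAV7N-6 receptors with TRAJ17 had nearly the same CDR3 loop. Of the 25 receptors, 20 had the V end of the family, 1 variable residue and the full TRAJ17 end, with no other difference in residues, a pattern noticed after the data were seen. They were found in all 6 libraries, with 4, 2 and 3 clonotypes in LNP-Ctrl and 7, 5 and 4 in LNP-P20-mAb. Together they made 25 clonotypes and 145 cells, with 8 residues at the variable position and 9 TRBV segments. The coding sequences of 5 versions are shown because only the codon at the variable position, in capitals, differs.
Leucine version: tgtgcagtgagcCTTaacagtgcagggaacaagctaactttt
Isoleucine version: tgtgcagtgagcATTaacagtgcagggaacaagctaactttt
Lysine version: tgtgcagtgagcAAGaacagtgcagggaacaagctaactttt
Alanine version: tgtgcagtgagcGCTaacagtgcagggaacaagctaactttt
Threonine version: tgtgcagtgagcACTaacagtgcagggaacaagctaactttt
The leucine version, in 3 codings, was in 5 libraries, in 9 clonotypes of 12 cells with 7 TRBV segments. The coding shown made up 7 of those clonotypes and was found in the same 5 libraries. The isoleucine version was in LNP-Ctrl 1 alone and held 112 cells. The lysine version was in LNP-P20-mAb 1 and 2, which share clones, in 4 clonotypes of 8 cells with the same coding and TRBV segment. The alanine version was in LNP-Ctrl 2 and LNP-P20-mAb 3 and the threonine coding shown in 2 libraries, in 3 cells each. With LNP-P20-mAb 1 and 2 pooled there were 21 clonotypes, 8 of them in the pooled library. The pattern was also on 8 clonotypes with another TRAV. Of these, 6 had a listed member (4 TRAV7-3, 1 TRAV7D-3 and 1 TRAV7-5) and 2 a TRAV outside the list.

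The members' CDR3 loops were of ordinary length. The mean was 13.6 residues ± 0.15 for members and 13.7 ± 0.0367 for others (SD, n = 6), a difference of -0.068 ± 0.121 (exact sign-flip permutation p = 0.1875). Within the family TRAV7-3 had the shortest mean, 13.2, and TRAV7D-4 the longest, 14.4.

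No beta chain segment was called as a partner of the members. TRBV13-2, with chains named jointly TRBV12-2 and TRBV13-2 counted in it, was on 12.0% of member clonotypes and 11.0% of others. TRBV5 followed with 8.06% and 7.36%. TRBV13-1 (6.62% and 6.31%), TRBV13-3 (6.53% and 6.41%) and TRBV3 (6.53% and 7.70%) came next. TRBV13-2 was the most frequent partner of every member but TRAV7D-3, where TRBV13-1 and TRBV3 had 11 each of 84, and TRAV7N-5, where TRBV5 had 10 of 99. The lowest adjusted p of a TRBV segment was 0.614 (edgeR).

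Most member clonotypes were single cells, as were most others. Of the member clonotypes 92.1% were single cells and 4.70% had 3 or more cells (49 of 1042), against 92.1% and 4.37% (419 of 9582) of the other clonotypes. Clonotypes of 20 or more cells numbered 10 among members. The share of member cells in clonotypes of 2 or more cells was 69.5%, 12.6% and 7.67% in LNP-Ctrl and 87.2%, 87.9% and 63.8% in LNP-P20-mAb. Other T cells were at 47.1%, 27.3% and 12.3% and at 85.9%, 84.5% and 57.9%. Members were higher in 4 of 6 libraries, by 2.25 ± 12.3 points on average (SD, n = 6; exact sign-flip permutation p = 0.625), and without LNP-Ctrl 1 the difference was -1.77 points. Libraries with a high share among member cells also had a high share among other cells.

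**Figure D4:**
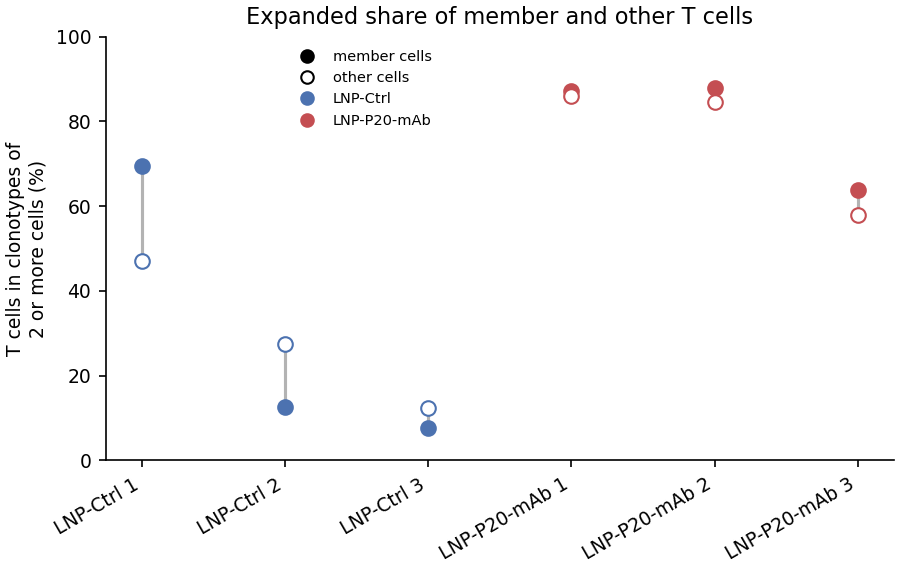
Share of T cells in clonotypes of 2 or more cells (%), for member cells (filled) and other cells (open), in each of the 6 libraries. The largest gap is in LNP-Ctrl 1, 69.5% against 47.1%, and the gap has the opposite direction in LNP-Ctrl 2 and 3.

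Expansion differed widely between members as a count of cells, and no member passed the test by clonotypes. The share of cells in clonotypes of 2 or more was 79.7% for TRAV7-3 and 69.8% for TRAV7N-6. It was 51.9% for TRAV7-4, 51.4% for TRAV7D-3, 51.3% for TRAV7D-4 and 32.8% for TRAV7-6. TRAV7-5 was at 14%, TRAV7N-4 at 11.8% and TRAV7N-5 at 8.49%. In the edgeR fit that set clonotypes with at least 3 cells beside clonotypes seen once, 0 of 9 members were called, against 1.29% of 155 segments. At an unadjusted p of 0.05 it was 0 members and 15.5% of segments. DESeq2 called 0 members, against 1.29% of segments, and at an unadjusted p of 0.05 it had 0 members and 14.8% of segments. The highest values were 1.41 ± 0.76 for TRAV7D-4, 1.05 ± 0.70 for TRAV7D-3 and 0.95 ± 0.56 for TRAV7-3 (log2 ± SE, lowest edgeR adjusted p 0.343). TRAV7-5 (-1.29 ± 0.78), TRAV7N-5 (-1.01 ± 1.01) and TRAV7N-4 (-0.89 ± 1.29) had the lowest. TRAV7-4, TRAV7-6 and TRAV7N-6 were within 0.10 of 0.

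The clones behind these shares are few. The largest, TRAV7-3 with TRAJ9 paired with TRBV5, held 154 cells of LNP-P20-mAb 1 (4.72%, 95% exact interval 4.02% to 5.50%) and 89 of LNP-P20-mAb 2 (4.41%, 3.56% to 5.40%). Next came a clone of 114 cells in LNP-P20-mAb 3 (4.01%), with TRBV20. It carried 2 member alpha chains, TRAV7-3 with TRAJ7 on all 114 cells and TRAV7N-6 with TRAJ23 on 107. A TRAV7N-6 clone of LNP-Ctrl 1 held 102 cells (3.06%), with the isoleucine version of the TRAJ17 loop above, and 10 more cells bore the same chains with the beta segment named TRBV13-2 alone. The CDR3 coding sequences of these 3 clones, the only member clones above 100 cells, are shown in lower case throughout.
TRAV7-3 with TRAJ9: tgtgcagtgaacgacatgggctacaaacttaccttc
its TRBV5 partner: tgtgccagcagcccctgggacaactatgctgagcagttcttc
TRAV7-3 with TRAJ7: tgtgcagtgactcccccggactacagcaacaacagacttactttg
TRAV7N-6 with TRAJ23 on the same clone: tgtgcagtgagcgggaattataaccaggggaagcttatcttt
their TRBV20 partner: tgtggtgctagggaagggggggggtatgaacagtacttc
beta partner of the TRAV7N-6 clone with TRAJ17: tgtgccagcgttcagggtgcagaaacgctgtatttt

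The other clones of 20 or more cells lay in the same libraries. LNP-Ctrl 1 held a TRAV7-3 clone of 71 cells with TRAJ24 and TRBV10, where 69 cells had a TRAV14-2 chain as well. A TRAV7-4 clone of 71 cells with TRAJ33 and a TRAV7D-4 clone of 22 cells with TRAJ31 and TRBV31 were in the same library. LNP-P20-mAb 1 and 2 held a TRAV7-4 clone with TRAJ33 of 43 and 26 cells, and LNP-P20-mAb 1 a TRAV7-4 clone with TRAJ4 of 23 cells. The alpha loop of the latter, in the same coding, was also in LNP-P20-mAb 2, on 30 cells of the 2 libraries together. The largest member clone of LNP-Ctrl 3 had 14 cells (TRAV7-6 with TRAJ31) and that of LNP-Ctrl 2 had 6 (TRAV7N-4 with TRAJ6). All 10 clonotypes of 20 or more cells were thus in LNP-Ctrl 1 and the LNP-P20-mAb libraries, 10 of 1042 member clonotypes against 68 of 9582 others. The 10 count the TRAV7-3 clone with TRAJ9 and the TRAV7-4 clone with TRAJ33 in LNP-P20-mAb 1 and again in LNP-P20-mAb 2. Of the 68, 9 were in LNP-Ctrl 2 and 2 in LNP-Ctrl 3. Another 22 and 17 were in LNP-P20-mAb 1 and 2, where shared clones also count in both.

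The TRAV7-4 clones with TRAJ33 were alike across treatments. The clone of 71 cells in LNP-Ctrl 1 and that of 43 and 26 cells in LNP-P20-mAb 1 and 2 used the same V, J and beta segments (TRBV13-3, TRBJ2-4). Their loops differed by 1 residue in the alpha chain and 2 in the beta chain. The coding sequences are shown with capitals at the 4 alpha and 6 beta bases that differ.
LNP-Ctrl 1 alpha: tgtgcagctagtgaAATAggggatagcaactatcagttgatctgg
LNP-P20-mAb 1 and 2 alpha: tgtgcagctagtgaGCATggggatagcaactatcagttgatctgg
LNP-Ctrl 1 beta: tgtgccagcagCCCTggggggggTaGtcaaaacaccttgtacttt
LNP-P20-mAb 1 and 2 beta: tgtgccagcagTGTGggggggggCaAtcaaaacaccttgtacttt
A second such pair was a TRAV7-3 clone of 12 cells in LNP-Ctrl 1 and a TRAV7D-3 clone of 11 cells in LNP-P20-mAb 3, both with TRAJ4 and TRBV5 and apart by 1 alpha and 2 beta residues. Their alpha loops differed at 2 bases, in capitals.
LNP-Ctrl 1 alpha: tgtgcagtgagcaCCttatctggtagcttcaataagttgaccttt
LNP-P20-mAb 3 alpha: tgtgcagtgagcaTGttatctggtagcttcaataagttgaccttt
The second of these alpha loops, with the same bases, was also in LNP-P20-mAb 1 and 2 as TRAV7-3 in 1 and 4 cells. There it had TRBV5, another beta J segment and the same beta loop residues in both libraries, which share clones. The same alpha loop residues, in another coding, were on 1 cell of LNP-Ctrl 2 with TRAV9N-3 and TRBV13-1.

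Clonotypes with a like partner in another library were counted, with no matches between LNP-P20-mAb 1 and 2. A clone found in both of these libraries still counts once in each. Partners had no more than 2 mismatches in each loop and the same segments, with D and N copies of a number merged. Such clonotypes were 18 of 1042 members (1.73%) and 241 of 9582 others (2.52%). Among clonotypes of 3 or more cells they were 8 of 49 (16.3%) and 86 of 419 (20.5%). This count was chosen after the data were seen and has no test.

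Few alpha loops recurred between libraries. Of 973 member receptors by V number, J and CDR3 residues, 50 (5.14%) were in 2 or more libraries, and 12 of the 50 were in LNP-P20-mAb 1 and 2 alone. Of other alpha chains 619 of 9876 (6.27%) recurred. Of the 38 others among the members, 35 had more than 1 TRBV partner and 32 had 1 cell per clonotype. In 3 or more libraries were the leucine version of the TRAV7N-6 loop with TRAJ17 and the number 3 loop with TRAJ4 shown for LNP-P20-mAb 3. The latter was in the 3 LNP-P20-mAb libraries, with the same beta segments and loop in LNP-P20-mAb 1 and 2. Another 2 were in 3 libraries each. One was of number 5 with TRAJ23, in 4 cells, and the other of number 3 with TRAJ22, in the 3 LNP-Ctrl libraries as single cells.

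The UMI count of member chains was as high as or higher than that of other alpha chains in every library, with no call after adjustment. The median per chain was 12, 6 and 6 in LNP-Ctrl and 12, 13 and 9.5 in LNP-P20-mAb, against 9, 6 and 5 and 7, 8 and 7 for other chains. Members were higher in 5 of 6 libraries and equal in 1, by 2.75 ± 2.04 (SD, n = 6; exact sign-flip permutation p = 0.0625, adjusted p = 0.125), and by 2.30 with LNP-P20-mAb 1 and 2 pooled (exact sign-flip permutation p = 0.125). With each receptor counted once, the member median was higher in 6 of 6 libraries, for example 5.5 against 5 in LNP-Ctrl 2 and 10.5 against 8 in LNP-P20-mAb 2. Over all deposited contigs of a name, where each cell of a large clone counts, TRAV7-3 had the highest median, 13 UMIs, and TRAV7N-4 the lowest, 5. Of member chains 26.9% ± 20.3 lay on barcodes with 2 alpha chains, against 21.9% ± 7.60 of others (SD, n = 6; exact sign-flip permutation p = 0.469). LNP-P20-mAb 3, with the clone of 2 member chains, had 64.5% against 35.3%, and without it the difference fell from 5.00 to 0.161 points.

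Outside the list the family held TRAV7-1 (58 cells, 46 clonotypes) and TRAV7D-2 (2173 cells, 383 clonotypes). TRAV7D-2 had 85.2% of its cells in clonotypes of 2 or more, and it was called in the comparison by expansion (log2 1.27 ± 0.29, edgeR adjusted p = 0.000963). The 9 members together had fewer cells than this one segment and 1042 clonotypes. The difference between TRAV7D-2 and the members was not tested.

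The TRAV segments whose clonotype share over the 6 libraries was most like the summed member share were TRAV9-4 (Pearson r = 0.82), TRAV21-DV12 (r = 0.82) and TRAV14N-3 (r = 0.72), of 69 segments compared. These are descriptions over 6 libraries of which 2 share clones.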

How the data were processed

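T cell receptor libraries from 6 tumour samples were analysed, and the 6 gene expression samples are not analysed here. Per the submitters' processing notes, the authors used Cell Ranger 8.0.1. Genome builds are named there with no role stated. Coordinates are therefore left out, and RefSeq's table (GRCm38.p6) served for gene order only. The deposited files list assembled productive chains, with read and UMI counts per chain as raw counts. Calling of cells and chains was the authors', so a chain or cell dropped before deposit leaves no trace.

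Repeat listings of a chain on 1 barcode were merged. Barcodes with 1 TRB chain and 1 or 2 TRA chains were kept, since those with more are candidate doublets. A TRA chain counted for a clonotype if it was on at least 20% of its cells. Segments with 30 or more clonotypes were tested with edgeR 4.0.16 (quasi-likelihood, R 4.3.3) on counts of clonotypes, each library scaled by its clonotypes, and Benjamini-Hochberg adjustment over all segments at 0.05. Expansion and partner fits had the library as a block. For TRAJ segments in the partner fit, TRA chains were counted and scaled by the number of TRA chains. DESeq2 1.42.0 was an alternative. The SE of a log2 change is its size over the square root of the F statistic. Single values were compared by two-sided exact permutation tests (20 assignments) and within libraries by sign-flip tests (64 flips), in Python 3.11.15 with scipy 1.17.1. Intervals are 95% exact Clopper-Pearson intervals, and a share of 0 is given with the share of 3 counts. Both cover counting error only. The fits were first checked on simulated counts drawn independently, which does not cover the clones that LNP-P20-mAb 1 and 2 share.

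All 10 listed names were described. Partner segments were named if called, clones if of 20 or more cells or the largest of a library, and recurrent receptors if in 3 or more libraries. Where fewer than 3 partner segments were called in a direction, the 3 most extreme log2 values are given. The members, lists and tests were chosen with earlier results of these data known.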

Additional observations from a re-analysis of the deposited data

Results flagged for a closer look

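The share of T cells with a member chain in LNP-Ctrl 1, 15.4%, lay far from the other 5 libraries, at 8.72% to 10.2%. The gap to the nearest library was 0.774 of the whole range of 6 libraries. Of 8 such sets of 6 libraries 1 was picked out, and chance picks out about 1 in 20. LNP-Ctrl 1 held member clones of 102, 71, 71 and 22 cells, and its share of clonotypes, 9.78%, lay among the others. The part these clones have in the difference was not tested.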

How the results depend on the processing

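The number of segments called between treatments (4) was 2 in DESeq2, 0 when cells were counted and 2 with LNP-P20-mAb 1 and 2 pooled, and 2 to 14 with 1 library left out (2 without LNP-Ctrl 3, 14 without LNP-Ctrl 1). By expansion it was 2, and 11 with TMM factors, 11 with barcodes of 2 TRB chains kept, 5 with alpha chains of 3 or more UMIs only, and 1 to 4 with 1 library left out. Among partners it was 4, then 2 with TRAV7N-6 left out (chosen after seeing the data), and 0 to 4 with 1 library left out (0 without LNP-Ctrl 2). No member was called under any alternative run. Reversed directions follow. When cells were counted, the log2 change between treatments was 1.44 for TRAV7-3, 0.44 for TRAV7D-3, -0.34 for TRAV7-6 and -0.13 for TRAV7N-6. By expansion, TRAV7-4 was 0.083 with 3 or more UMIs and 0.030 with joint TRBV names merged (chosen after seeing the data), and -0.49 to 0.31 with 1 library left out. TRAV7-6 was 0.051 with 3 or more UMIs and 0.070 with the chain of most UMIs alone, and -0.58 to 0.44 with 1 library left out. TRAV7N-6 was -0.16 in DESeq2, -0.28 with TMM factors and -0.054 with 2 TRB chains kept, and -0.89 to 0.40 with 1 library left out. With 1 library left out, the expanded share difference was -1.77 to 5.66 points and the summed share of cells -2.55 to 0.775 points, both with the sign turned without LNP-Ctrl 1. Cause was not tested in any of these. The replicate numbers did not pair the libraries (r of same-numbered libraries -0.070, -0.15 and -0.080 over 155 segments). With the replicate block, 5 segments were called between treatments, no member among them, and the summed share of clonotypes differed by -0.905 points (exact sign-flip permutation p = 0.25, the smallest that 3 pairs allow). In 40 other alternatives the count of calls stayed within 1.5 times of its main value, which does not say that the same segments were called. Between treatments that count was up to 6 (3 higher, 3 lower) against 4 (1 higher, 3 lower). Direction and side of the threshold were kept by 87 values of single measures and 371 of single segments or copies. The 9 lost calls of TRAJ segments are given with their values among the partner segments. Depth limits single members in LNP-P20-mAb 2, where 1 of 400 clonotypes is 0.25%.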

Other observations

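Cells with 2 member alpha chains numbered 119, and 107 of them were in the clone of LNP-P20-mAb 3. The other 12 were single-cell clonotypes in the LNP-Ctrl libraries, 3 of them with TRAV7-5 beside TRAV7N-5. Cells of the TRAV7N-6 clone with TRAJ17 in LNP-Ctrl 1 were split between 2 beta segment names, 102 and 10 cells, so that 1 clone counted as 2 clonotypes. With the joint name read as TRBV13-2, the difference in the summed clonotype share between treatments was -1.06 points (exact permutation p = 0.1), against -0.905 under the deposited names.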
